A study of Mus musculus with 4 samples.

Results

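Testis transcribes many RNAs that code for no protein, and 1225 genes of this kind were measured at a mean of at least 3 CPM (read counts scaled to one total per library) over 4 mouse testis libraries. A gene was taken as non-coding when every transcript listed under its symbol carried a RefSeq non-coding identifier and none a protein-coding one. Such symbols numbered 1962 at any level, among 17934 genes in all. One of the 1225 symbols, the pseudogene Idi1-ps1, lay on 2 chromosomes and was kept as 2 loci, which gave 1226 loci, of which 1225 were high enough to be tested. The members were thus selected on their mean CPM alone, and the 3 CPM limit used the mean over all 4 libraries and not the difference between genotypes, so levels are given below as a description and only the genotype comparison was tested. The members just inside the limit were A630010A05Rik at 3.003 CPM, Gm14169 at 3.005 CPM and Gm5113 at 3.010 CPM, and those just outside it were Atad3aos at 2.995 CPM, Gm40178 at 2.991 CPM and Gm9917 at 2.986 CPM.

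The study compared whole testis of Tas1r3 knockout mice, Tas1r3-/- (KO, 2 libraries), with that of Tas1r3+/+ wild-type mice (WT, 2 libraries). The deleted gene makes T1R3, a partner protein needed by taste receptors for sweet and for umami compounds. All animals were male C57BL/6 mice on a western diet for 18 weeks, so the diet was common to both genotypes and the labels name no tissue to which the knockout was limited. Total RNA was sequenced with an Ion Torrent kit. The labels do not say that the replicates of a genotype came from separate mice, so p-values measure the spread between libraries, which may be technical.

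Long non-coding RNAs are transcribed by RNA polymerase II, spliced and polyadenylated like messenger RNAs, but hold no conserved long reading frame. Adult testis is known for an unusually large set of them, most made in meiotic spermatocytes and round spermatids, where chromatin is widely open. Other non-coding genes are better understood: ribosomal RNA and the 7SK and 7SL RNAs serve translation, transcription control and protein export, Neat1 and Malat1 stay in nuclear bodies, imprinted RNAs silence neighbouring genes on one parental chromosome, and host genes carry microRNAs or small nucleolar RNAs in their introns.

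The start regions of 4 members with a single RefSeq window are shown first. Rbakdn and 1700008K24Rik are among the long non-coding RNAs highest in level for their length. The members 4933438K21Rik and 1700008J07Rik are among those with the smallest p between genotypes, leaving aside members with few reads in a genotype. Each window holds 250 bases before and 50 after the transcription start, on the gene's own strand, from RefSeq on build GRCm38.p6. The windows are chr5:143165702-143166001 (minus strand) for Rbakdn, chr17:49113484-49113783 (minus strand) for 1700008K24Rik, chr4:147068387-147068686 (minus strand) for 4933438K21Rik and chr7:127512820-127513119 (minus strand) for 1700008J07Rik. Capitals mark any match, on either strand, to the TATA box TATAAA, the full cAMP response element TGACGTCA, the partial X-box site GTTGCC or the long MYB site AACTGCC.
Rbakdn: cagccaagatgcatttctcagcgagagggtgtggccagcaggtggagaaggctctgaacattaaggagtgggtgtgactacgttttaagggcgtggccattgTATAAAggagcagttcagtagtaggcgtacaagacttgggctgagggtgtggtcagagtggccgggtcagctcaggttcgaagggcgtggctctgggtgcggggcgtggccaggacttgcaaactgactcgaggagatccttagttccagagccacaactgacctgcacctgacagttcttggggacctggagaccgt
1700008K24Rik: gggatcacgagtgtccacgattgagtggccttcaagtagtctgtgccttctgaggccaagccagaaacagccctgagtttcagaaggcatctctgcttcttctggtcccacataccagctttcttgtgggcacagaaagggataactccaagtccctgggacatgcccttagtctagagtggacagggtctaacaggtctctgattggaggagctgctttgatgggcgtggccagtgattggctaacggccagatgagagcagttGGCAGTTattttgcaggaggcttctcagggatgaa
4933438K21Rik: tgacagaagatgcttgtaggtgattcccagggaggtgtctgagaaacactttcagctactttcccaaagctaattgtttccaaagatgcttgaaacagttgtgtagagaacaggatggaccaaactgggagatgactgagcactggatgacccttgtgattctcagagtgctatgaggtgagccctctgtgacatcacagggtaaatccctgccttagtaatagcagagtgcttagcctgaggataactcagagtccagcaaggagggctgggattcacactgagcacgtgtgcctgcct
1700008J07Rik: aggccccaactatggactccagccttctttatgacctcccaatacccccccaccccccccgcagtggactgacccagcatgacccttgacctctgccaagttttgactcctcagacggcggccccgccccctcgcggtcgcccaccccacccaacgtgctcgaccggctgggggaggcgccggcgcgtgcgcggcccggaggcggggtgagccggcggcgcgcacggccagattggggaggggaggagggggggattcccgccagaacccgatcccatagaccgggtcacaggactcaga

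Rbakdn held 1 match to TATAAA, before the transcription start but nearer to the window's first base than to the start. Whether it serves as a TATA box was not tested. 1700008K24Rik held 1 match to the long MYB site, read on the other strand as GGCAGTT, which lay after the start. None of the 4 searched words was found in the windows of 4933438K21Rik and 1700008J07Rik. The windows of 1700028J19Rik and AI507597, also taken for their level but not printed, held none of these words either. The 1700008J07Rik window held 26 CG dinucleotides, against 11 in Rbakdn, 4 in 1700008K24Rik and 1 in 4933438K21Rik. RefSeq windows were found for 873 of the 1226 loci, in 929 windows, and were set against all 32851 mouse windows of the same 300 bases. AACTGCC, a site of the MYB factors, one of which (A-MYB) acts in meiotic spermatocytes, was in 7.43% of the members' windows and 4.12% of all windows. GTTGCC, part of the site bound by RFX factors of ciliated cells and spermatids, was in 16.7% and 12.5%. TGACGTCA, the site of CREB and of its spermatid relative CREM, was in 2.91% and 1.79%, its shorter form TGACG in 25.5% and 20.8%, and its variant TGACGCA in 2.48% and 2.12%. TATAAA was in 10.3% of the members' windows and 13.6% of all windows, CCAAT in 38.5% and 37.4%, and the short MYB core AACNG in 84.0% and 80.3%. The words overlap: TGACG lies within TGACGTCA and TGACGCA, and AACNG within AACTGCC. These are letter matches and no binding was measured.

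The mature sequences of Mir6240 and Mir6236 follow, from RefSeq, because they are the only members annotated as microRNA genes with a mature sequence listed there. Capitals mark bases 2 to 8, the seed, which in microRNAs pairs with target messengers.
mmu-miR-6240: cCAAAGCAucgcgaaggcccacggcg
mmu-miR-6236: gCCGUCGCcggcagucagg

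The seeds of miR-6240 and miR-6236 differ. The libraries were made from total RNA and counted on the precursor genes, so the values below are not levels of the mature molecules. Which RNA gave the reads at these short loci was not tested. Mir6236, whose precursor lies on chromosome 9, had 34.7 and 46.8 CPM in KO testes, against 36.6 and 31.5 CPM in WT testes. Mir6240, on chromosome 5, had 18.7 and 26.6 CPM in KO testes, against 11.6 and 18.8 CPM in WT testes. Mir7666, on chromosome 8, had 3.89 and 8.36 CPM in KO testes, against 3.49 and 2.21 CPM in WT testes. Mir6240 overlapped between genotypes, as did Mir6236, while both KO values of Mir7666 were above both WT values, on few reads. Log2 fold changes, taken as KO minus WT of log2(CPM + 1), were 0.24 ± 0.24 (SE) for Mir6236, 0.56 ± 0.35 for Mir6240 and 0.83 ± 0.58 for Mir7666, and limma's test with Benjamini-Hochberg adjustment over all genes passed none of them (adjusted p = 0.95 for each).

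The libraries were shallow and unequal. The smallest step between low values gave estimates of 748637 and 597936 reads in the KO libraries and 1719355 and 1807697 reads in the WT libraries. At the 3 CPM limit this came to 2.25 and 1.79 reads in KO libraries, against 5.16 and 5.42 reads in WT libraries. Members listed at 0 numbered 18 and 15 in KO libraries, against 1 and 2 in WT libraries, and 363 members had at least 10 reads in every library. Tas1r3 itself had 1.34 and 0 CPM in KO testes, against 13.8 and 20.5 CPM in WT testes, so that both libraries labelled KO were below both labelled WT. The labelled tissue was checked with 10 germ cell markers, which were all above 0 in every library and summed to 26940 and 37970 CPM in KO testes, against 31270 and 30870 CPM in WT testes. In whole testis, fewer cells of a type and less RNA per cell cannot be told apart.

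By level, most non-coding genes were low. The median member had 9.45 CPM, against 21.5 CPM for the 13487 protein-coding genes that met the same limit. Divided by transcript length the order was reversed, with a median of 9.02 CPM per kb for members and 7.61 CPM per kb for protein-coding genes. Members were shorter, with a median of 1112 bases against 2938 bases. Of the members 633 (51.6%) had 3 to 10 CPM, 374 had 10 to 30 CPM, 164 had 30 to 100 CPM and 54 had 100 CPM or more.

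One ribosomal RNA, Rn18s, stood far above the rest, while Rn45s averaged 1493 CPM, close to the 1484 CPM of Ubb-ps. Rn18s, the 18S RNA of the small ribosomal subunit, lay at chr17:40157245-40159094 on the plus strand of mm39 and had 19348 and 17573 CPM in KO testes, against 13863 and 11948 CPM in WT testes. Both KO libraries were above both WT libraries. Rn45s, the precursor that contains it, had 2085 and 1277 CPM in KO testes, against 1229 and 1379 CPM in WT testes, and its genotypes overlapped. These coordinates, like all that follow, are those of the deposited tables on mm39, in which end minus start equals the length of an unspliced transcript, so that one end is off by 1 base from an inclusive count. Rn18s and Rn45s share sequence, and reads of the repeated ribosomal genes cannot be placed on one copy.

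Below Rn18s, the highest members per kb were pseudogenes, a downstream neighbour of a zinc finger gene, testis clones and Rn7sk. Ubb-ps, a processed copy of the ubiquitin gene Ubb, had 2112 CPM per kb over the 4 libraries. Rbakdn, whose symbol marks it as downstream of the zinc finger gene Rbak, had 1405 CPM per kb and came from chr5:143150534-143151507 on the minus strand. 1700027A15Rik had 902 CPM per kb, 1700008K24Rik 562 CPM per kb, 1700123L14Rik 508 CPM per kb, Gm15772 468 CPM per kb and 1700019M22Rik 425 CPM per kb. Rn7sk, the 7SK RNA that holds the elongation factor P-TEFb inactive, had 391.9 CPM per kb. It was followed by Ppp1r2-ps3 at 372, the X-linked 1700003E24Rik at 360 and Rps6-ps4 at 357 CPM per kb. By RefSeq biotype, 1700123L14Rik and Gm15772 are also transcribed pseudogenes, and 1700019M22Rik and 1700003E24Rik are non-coding RNA pseudogenes. Pseudogenes can share reads with near-identical copies, so their levels are uncertain.

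Per library, Rbakdn had 719 and 890 CPM in KO testes, against 798 and 748 CPM in WT testes. 1700008K24Rik had 461 and 552 CPM in KO testes, against 464 and 493 CPM in WT testes. 1700123L14Rik, at chr6:96141484-96143187 on the minus strand, had 827 and 856 CPM in KO testes, against 912 and 863 CPM in WT testes. The values of Rbakdn and 1700008K24Rik overlapped between genotypes, and both KO values of 1700123L14Rik were just below both WT values. Their log2 fold changes were 0.05 ± 0.14, 0.08 ± 0.14 and -0.08 ± 0.12 (SE, n = 2 each), and none passed limma's test with Benjamini-Hochberg adjustment, with adjusted p from 0.960 to 0.979. Other abundant members lay further apart. Ppp1r2-ps3 had 272 and 491 CPM in KO testes, against 191 and 301 CPM in WT testes, with libraries that overlapped and a log2 fold change of 0.61 ± 0.28 (limma, Benjamini-Hochberg adjusted p = 0.95). Rn7sk had 171 and 117 CPM in KO testes, against 126 and 106 CPM in WT testes, and overlapped as well.

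Classes set by gene name divided the members. RIKEN testis clones, named from full-length cDNA libraries of testis, made up 478 members (39.0%) with a median of 12.1 CPM per kb, and predicted genes made up 413 (33.7%) with 7.82 CPM per kb. Other RIKEN clones numbered 119 with a median of 4.81 CPM per kb, other named genes 68 with 7.62, opposite-strand RNAs 63 with 7.75 and pseudogenes 54 with 12.1 CPM per kb. Small classes were the small RNA host genes (12), nuclear-retained RNAs (7), structural RNAs (6), imprinted RNAs (3) and microRNA genes (3). RefSeq's current biotypes placed 1037 members among long non-coding RNAs and 152 among transcribed pseudogenes. They placed 19 members among protein-coding genes, including Klhl11, Hdac10, Ghrl and Zbtb37, for which only a non-coding transcript was in the deposited tables.

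**Figure D1:**
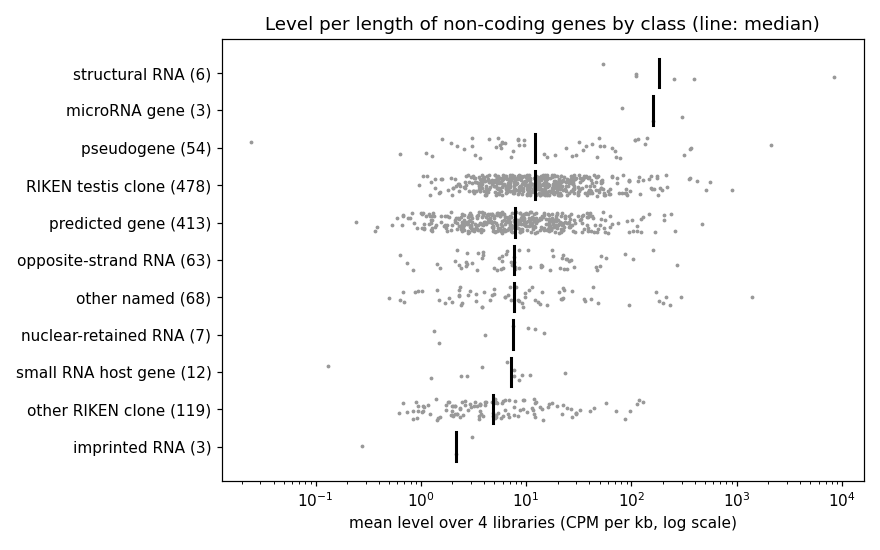
Mean level over the 4 libraries in CPM per kb (log scale) of each non-coding locus, in rows by class with the number of loci, with the class median as a line. Structural RNAs sit highest with a median of 183 CPM per kb, testis clones have a median of 12.1 and imprinted RNAs are lowest at 2.16 CPM per kb.

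Members took 5.11% and 5.37% of the deposited CPM in KO libraries, against 4.76% and 4.50% in WT libraries. Both KO libraries were higher, by 0.607 percentage points on average, and a two-sided exact permutation test gave p = 0.333, the smallest it allows with 2 against 2. Rn18s and Rn45s together took 2.14% and 1.88% in KO libraries, against 1.51% and 1.33% in WT libraries. The other members took 2.96% and 3.48% in KO libraries, against 3.25% and 3.17% in WT libraries, and the genotypes overlapped (exact permutation p = 1). Testis clones took 1.18% and 1.40% in KO libraries, against 1.30% and 1.29% in WT libraries. The first KO library was thus the lowest and the second the highest, in the same order as the germ cell markers, whose part in it was not tested.

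**Figure D2:**
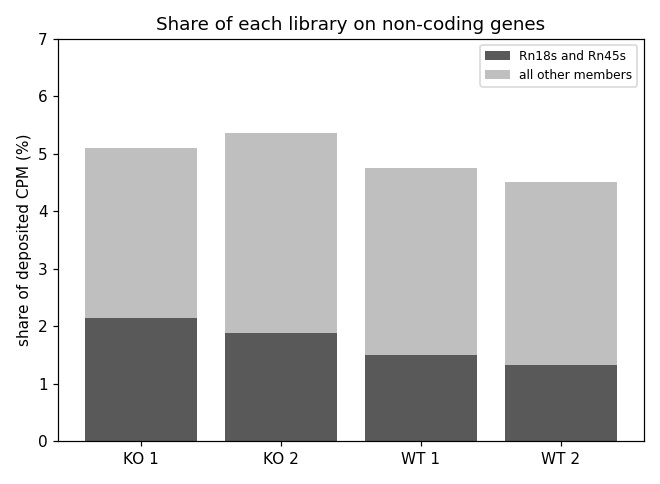
Share of each library's deposited CPM (%) on non-coding genes, as stacked bars for KO replicates 1 and 2 and WT replicates 1 and 2, with Rn18s with Rn45s in dark grey and all other members in light grey. The dark part is 2.14% and 1.88% in KO libraries and 1.51% and 1.33% in WT libraries, while the light parts overlap between genotypes.

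In the genotype comparison, no non-coding gene differed between KO and WT testes at an adjusted p under 0.05 (limma with a mean-variance trend on log2(CPM + 1), Benjamini-Hochberg over 17654 genes). Over all genes tested, 0.00566% were called. Tas1r3, the deleted gene, was not called either, with a log2 fold change of -3.54 ± 0.61 (limma, Benjamini-Hochberg adjusted p = 0.627). A count of 0 called members is therefore not evidence that none changed. The count depended on which KO library was kept: with KO replicate 1 left out 96 members were called and with KO replicate 2 left out 61, of which 13 were in both sets, and 0 with either WT replicate left out. In those fits the single KO library is taken to vary as the WT libraries do. Without adjustment, 77 of 1225 members (6.29%) had p under 0.05, 35 of them higher and 42 lower in KO testes. The background over all genes was 4.33%, made of 1.32% higher and 3.01% lower. The 77 became 285 in the absence of KO replicate 1, 260 in that of KO replicate 2, 20 in that of WT replicate 1 and 16 in that of WT replicate 2. Both KO libraries lay above both WT libraries for 217 members (17.7%) and below for 202 (16.5%), and the background over all genes was 15.1% above and 19.2% below. The median log2 fold change was -0.02 over members and -0.04 over all genes tested. The median absolute log2 difference between the KO libraries was 0.55 and between the WT libraries 0.32. The median absolute log2 fold change between genotypes was 0.32. It is taken between means of 2 libraries, which vary less than single libraries, so these values are not like measures.

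The 3 CPM limit itself bears on these counts, since a gene near it can pass on the strength of one genotype. Among the 1066 tested members whose mean was at least 3 CPM in KO and in WT testes, 50 had p under 0.05 (4.69%), 21 higher and 29 lower. Among the 71 with a KO mean under 3 CPM, 13 had p under 0.05 and all were lower in KO, and among the 88 with a WT mean under 3 CPM, 14 had it and all were higher. In these last sets the direction follows from how the genes entered. The 363 members with at least 10 reads in every library had 12 higher and 5 lower at p under 0.05 (4.68%).

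**Figure D3:**
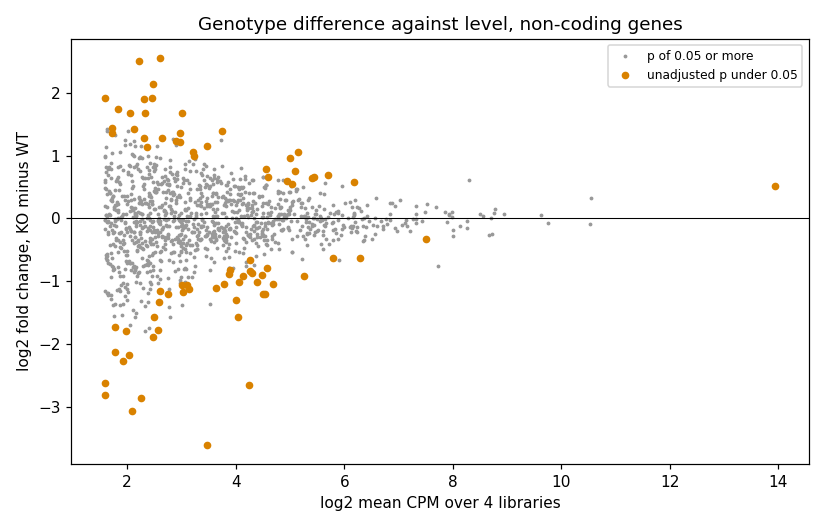
Log2 fold change of each tested non-coding gene, as KO minus WT of log2(CPM + 1), against its log2 mean CPM over the 4 libraries, with the 77 genes at an unadjusted p under 0.05 in orange. Folds spread widely near the 3 CPM limit and narrow with level, and no gene passed the adjusted test.

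The members with the smallest p whose libraries did not overlap between genotypes are given next, up to 8 in each direction, and none of them was called (limma, Benjamini-Hochberg adjusted p = 0.627 for Gm20605 and 0.95 for each of the others). Among those higher in KO was 4933411G06Rik, a testis clone at chr10:51632270-51633291 on the minus strand, which RefSeq places among transcribed pseudogenes. It had 45.4 and 40.1 CPM in KO testes, against 21.5 and 21.3 CPM in WT testes, a log2 fold change of 0.96 ± 0.24. Its 4 values rested on an estimated 58 reads in KO and 76 reads in WT libraries. Each genotype's libraries lay close together, which the choice by smallest p favours. Rn18s, with its values above, had a log2 fold change of 0.52 ± 0.12. Quantile normalization set it to 0, since that method gives the highest gene of every library one value.

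Tmem181b-ps, a pseudogene of a membrane protein gene at chr17:6706401-6718394 on the minus strand, had 46.2 and 48.4 CPM in KO testes, against 14.8 and 33.3 CPM in WT testes. Gm29719, its neighbour on the same strand, had 6.65 and 10.2 CPM in KO testes, against 0.01 and 1.64 CPM in WT testes. Both KO libraries were higher for both neighbours, and the WT libraries differed widely from each other. The log2 fold changes were 1.05 ± 0.35 for Tmem181b-ps and 2.50 ± 0.68 for Gm29719. In reads, Gm29719 rested on 11 in KO and 3 in WT libraries, a depth-corrected ratio of 9.60 (exact 95% interval 2.54 to 53.6, counting error only).

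Gm42356, at chr4:150892237-150894179 on the plus strand, had 5.76 and 16.7 CPM in KO testes, against 0.632 and 1.14 CPM in WT testes. With 14 reads in KO and 3 in WT libraries its depth-corrected ratio was 12.2 (exact 95% interval 3.41 to 66.3, counting error only). Gm32511 had 6.75 and 10.03 CPM in KO testes, against 1.78 and 1.19 CPM in WT testes. These predicted genes were well separated but rested on few reads. Gm14637 had 8.39 and 8.02 CPM in KO testes, against 1.62 and 2.16 CPM in WT testes. The testis clone 4930545E07Rik had 8.01 and 10.03 CPM in KO testes, against 3.49 and 0.553 CPM in WT testes. These 4 genes and Gm29719 entered with a WT mean under 3 CPM, where a higher KO value was a condition of entry.

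Among members lower in KO, 3 testis clones were measured in every library. 1700084F23Rik, at chr13:70152169-70176468 on the minus strand, had 9.35 and 8.36 CPM in KO testes, against 22.1 and 24.3 CPM in WT testes. 4933438K21Rik, at chr4:147147823-147152894 on the minus strand, had 17.6 and 15.4 CPM in KO testes, against 33.2 and 37.0 CPM in WT testes. 1700008J07Rik, at chr7:127109610-127112042 on the minus strand, had 64.8 and 58.4 CPM in KO testes, against 97.0 and 94.7 CPM in WT testes. In all 3 the libraries of a genotype lay close together and the genotypes were apart, which the choice by smallest p without overlap favours. In estimated reads, 1700084F23Rik rested on 12 in KO and 82 in WT libraries. 4933438K21Rik rested on 22 in KO and 124 in WT libraries, and 1700008J07Rik on 83 and 338. The log2 fold changes were -1.30 ± 0.32 for 1700084F23Rik, -1.04 ± 0.26 for 4933438K21Rik and -0.63 ± 0.18 for 1700008J07Rik. 1700008J07Rik starts within 1000 bases of Srcap, which encodes a chromatin remodeller that deposits the histone variant H2A.Z, and runs on the opposite strand to it.

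The other 5 leading members lower in KO were near 0 in KO testes, and 3 of them overlap protein-coding genes on the same strand. Gm20605, at chr5:137627385-137641159 on the plus strand, overlaps Lrch4, a gene of leucine-rich repeats, and Sap25, a subunit of the Sin3 corepressor complex. It had 2.22 and 0.03 CPM in KO testes, against 19.7 and 22.6 CPM in WT testes, with a log2 fold change of -3.60 ± 0.62. From an estimated 2 reads in KO and 75 in WT libraries it was 14.3-fold lower in KO after correction for depth (exact 95% interval 3.83 to 120, counting error only). Summed over Gm20605, Lrch4 and Sap25 the level was 147 and 120 CPM in KO testes, against 137 and 131 CPM in WT testes. The genotypes overlapped in this sum, of which Gm20605 is a minor part. Lrch4 and Sap25 without it summed to 145 and 120 CPM in KO testes, against 118 and 109 CPM in WT testes, with both KO libraries higher. How shared reads were assigned among the 3 genes was not tested.

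Gm28042, which overlaps Jmjd7 and Pla2g4b on chromosome 2, had 0.21 and 0.00 CPM in KO testes, against 6.49 and 10.3 CPM in WT testes. It was at least 3.82-fold lower in KO, taking 3 reads over both KO libraries as the floor (counting error only). Ipo11-lrrc70, which overlaps the importin gene Ipo11 and Lrrc70 on chromosome 13, had 0.16 and 0.59 CPM in KO testes, against 6.92 and 11.3 CPM in WT testes, and was at least 4.07-fold lower on the same floor. Each was below 1 read in both KO libraries. Summed with their partners, Gm28042 stood at 8.67 and 3.46 CPM in KO testes, against 16.4 and 13.0 CPM in WT testes. Ipo11-lrrc70 with its partners stood at 25.4 and 21.9 CPM in KO testes, against 33.4 and 29.0 CPM in WT testes. In both sums the KO libraries remained below the WT libraries, by less than for the non-coding gene alone.

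Zbtb37, a zinc finger gene of which only a non-coding transcript was tabulated, had less than 0.001 CPM in both KO libraries, against 5.42 and 6.63 CPM in WT testes, and was at least 2.67-fold lower. Gm17484, which overlaps Bag4 on the other strand, had 0.06 and 0.00 CPM in KO testes, against 9.12 and 2.95 CPM in WT testes, and was at least 2.67-fold lower as well. Values below 1 read are fractions in the deposited tables, whose source was not tested. All 5 genes entered with a KO mean under 3 CPM, where a higher WT value was a condition of entry. The folds given for them describe genes so selected and are no test of a difference.

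**Figure D4:**
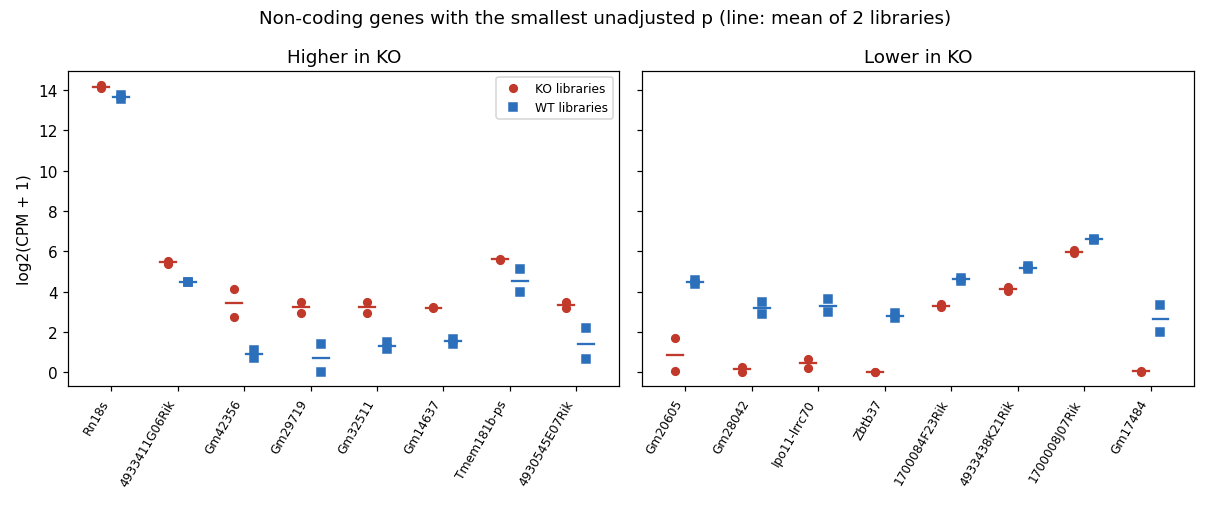
Level of each library, in log2(CPM + 1), for the 8 non-coding genes per direction with the smallest unadjusted p among those whose genotypes do not overlap, with KO libraries as red circles left of WT libraries as blue squares and a line at each mean. Rn18s, 4933411G06Rik and the 3 testis clones 1700084F23Rik, 4933438K21Rik and 1700008J07Rik have tight pairs, which the choice by smallest p favours. Gm20605, Gm28042, Ipo11-lrrc70, Zbtb37 and Gm17484 sit near 0 in KO.

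Members that overlap a protein-coding gene on the same strand, 47 of them tested, had 2 higher (4.26%) and 6 lower (12.8%) with p under 0.05 before adjustment, where all genes had 1.32% and 3.01%. Without overlap of libraries 4 were above (8.51%) and 13 below (27.7%), where all genes had 15.1% and 19.2%. Of the 6, 4 had a KO mean under 3 CPM, so that their direction was fixed by how they entered. Among the 40 whose mean was at least 3 CPM in KO and in WT testes, 2 were higher and 2 lower with p under 0.05, and 4 were above and 9 below. The other 1178 members had 33 higher and 36 lower, and 213 above and 189 below. Among the 6 was also Gm28043 over Cmtr1 and Rnf8, with 1.04 and 0.11 CPM in KO testes, against 9.30 and 3.21 CPM in WT testes. Its sum with both partners was 70.3 and 58.7 CPM in KO testes, against 72.3 and 79.1 CPM in WT testes, and did not overlap. The testis clone 4930505N22Rik over Hps6, a gene of lysosome-related organelles, had 4.01 and 3.34 CPM in KO testes, against 10.9 and 8.60 CPM in WT testes. Its sum with Hps6 was 6.68 and 5.02 CPM in KO testes, against 17.5 and 14.1 CPM in WT testes, and stayed apart. Gm44505 over the zinc finger gene Zfp91 had 0.04 and 19.3 CPM in KO testes, against 23.8 and 32.8 CPM in WT testes, with the 2 KO libraries far apart. Its sum with Zfp91 was 249 and 219 CPM in KO testes, against 233 and 248 CPM in WT testes, and overlapped.

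The position of members relative to protein-coding genes is given as a description. Antisense overlap with a protein-coding transcript was found for 376 members (30.7%), against 9.90% of protein-coding genes. A start within 1000 bases of an opposite-strand coding start, the arrangement called divergent, was found for 316 members (25.8%), against 13.1%. Members with none of these relations numbered 653 (53.3%). The median log2 fold change was -0.04 for antisense members, -0.10 for divergent members and 0.02 for members with none of these. Whether strand was used in counting is not stated, so reads of a gene and its antisense partner may not be separable.

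The 63 opposite-strand RNAs, named for the coding gene they oppose, allow such pairs to be read directly. Their coding partners, 62 distinct genes, were all measured, and 31 of the RNAs were lower per kb than their partner. RNA and partner had the same sign of log2 fold change in 36 of the 62 pairs in which both were tested. Kcnmb4os1, opposite a potassium channel subunit gene, had 154 and 290 CPM in KO testes, against 212 and 165 CPM in WT testes, while Kcnmb4 had 64.8 and 63.4 CPM in KO testes, against 66.0 and 63.2 CPM in WT testes. Cep83os, opposite a centriole distal appendage gene, had 98.8 and 91.8 CPM in KO testes, against 97.1 and 92.7 CPM in WT testes. Med9os, opposite a Mediator subunit gene, had 70.8 and 102 CPM in KO testes, against 96.5 and 70.8 CPM in WT testes. Itpr3os, opposite an inositol trisphosphate receptor gene, had 68.8 and 93.1 CPM in KO testes, against 85.5 and 91.1 CPM in WT testes. In each of these 4 RNAs the genotypes overlapped. None of the 63 RNAs was called by limma after adjustment, and 1 had an unadjusted p under 0.05.

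The 3 RNAs classed by name as imprinted each had lower values in both KO libraries than in both WT libraries, which 19.2% of all genes showed, and none passed the test. Kcnq1ot1, which silences genes of the Kcnq1 domain on the paternal chromosome, had 16.3 and 20.4 CPM in KO testes, against 26.7 and 27.998 CPM in WT testes. Peg13, made from the paternal allele within Trappc9, had 8.05 and 13.2 CPM in KO testes, against 18.5 and 18.7 CPM in WT testes. Meg3, made from the maternal allele of the Dlk1 domain, had 3.77 and 6.44 CPM in KO testes, against 9.61 and 7.31 CPM in WT testes. As tabulated by form, the 11472-base form of Meg3 had 0.21 and 1.82 CPM in KO testes, against 6.78 and 3.93 CPM in WT testes. The 1913-base form had 3.55 and 4.62 CPM in KO testes, against 2.82 and 3.37 CPM in WT testes, and was the higher in both KO libraries. All of Meg3 rested on an estimated 7 reads in KO and 30 reads in WT libraries. Neither form was called (limma over transcripts, Benjamini-Hochberg adjusted p = 0.86 and 0.96). How reads were divided between the forms was not tested. The host genes Mirg, of the same domain as Meg3, and Snhg14, of the imprinted Snrpn domain, did not share the pattern. Mirg had 10.7 and 10.03 CPM in KO testes, against 17.3 and 9.03 CPM in WT testes, and Snhg14 had 1.48 and 5.42 CPM in KO testes, against 1.98 and 3.81 CPM in WT testes. Both overlapped between genotypes. In the class of 3, log2 fold changes were -0.56 ± 0.27 for Kcnq1ot1, -0.79 ± 0.36 for Peg13 and -0.66 ± 0.48 for Meg3 (SE), with limma's adjusted p = 0.95 for each after Benjamini-Hochberg adjustment. The 12 small RNA host genes were divided, with 5 higher and 7 lower, and 1 of them at an unadjusted p under 0.05.

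The RNAs classed by name as nuclear-retained, 7 in all, had fold changes of both signs, 3 above and 4 below 0. The class label is not a measured location of each RNA, Norad included. Neat1, the scaffold of paraspeckles, had 38.7 and 47.5 CPM in KO testes, against 61.2 and 73.9 CPM in WT testes, without overlap, and its log2 fold change was -0.64 ± 0.21 (limma, Benjamini-Hochberg adjusted p = 0.95). Malat1, an RNA of nuclear speckles, had 109 and 56.5 CPM in KO testes, against 71.2 and 57.5 CPM in WT testes. Norad, which binds Pumilio proteins, had 66.2 and 40.2 CPM in KO testes, against 56.6 and 74.0 CPM in WT testes. Malat1 and Norad overlapped between genotypes, with the KO libraries wider apart than the WT libraries. Tug1 had 41.5 and 40.1 CPM in KO testes, against 37.2 and 39.3 CPM in WT testes, with both KO values slightly above both WT values and a log2 fold change of 0.09 ± 0.21. Neat1 has a short form and a long form, and only the long one builds paraspeckles. As tabulated, the short form had 34.0 and 34.7 CPM in KO testes, against 51.9 and 60.2 CPM in WT testes. The long form had 4.73 and 12.8 CPM in KO testes, against 9.34 and 13.7 CPM in WT testes. Neither was called (limma over transcripts, Benjamini-Hochberg adjusted p = 0.75 and 0.94), and how reads were divided between the forms was not tested.

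Pseudogene transcripts were often higher than their parent as tabulated. Of the 54 pseudogenes classed by name, 34 had a measured parent gene of the matching symbol, and 20 of these stood above the parent per kb. Rps6-ps4 averaged 307 CPM over the 4 libraries, while its parent Rps6, a ribosomal protein gene, averaged 1.79 CPM. Oaz1-ps averaged 307 CPM and its parent Oaz1, the inhibitor of ornithine decarboxylase, 22.0 CPM. Ubb-ps averaged 1484 CPM and Ubb 5823 CPM. Near-identical copies share reads, so a level in either copy is uncertain, and their sum depends less on how reads are divided between them. Reads shared with further copies were not examined. Rps6-ps4 with Rps6 summed to 287 and 321 CPM in KO testes, against 322 and 306 CPM in WT testes, and Oaz1-ps with Oaz1 to 279 and 353 CPM in KO testes, against 350 and 334 CPM in WT testes. Both sums overlapped between genotypes.

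Splice forms were tabulated for 189 members, with at most 5 transcripts in a gene, and 1434 member transcripts were tested. None was called by limma after adjustment over 28243 transcripts, of which 0% were called in all. At an unadjusted p under 0.05 there were 44 member transcripts (3.07%), 18 higher and 26 lower, against a background of 6.26%, made of 2.3% higher and 3.97% lower. Rbakdn was made of 3 forms of 520 to 636 bases. The 520-base form had 408 and 527 CPM in KO testes, against 298 and 361 CPM in WT testes, and the 528-base form had 77.8 and 14.9 CPM in KO testes, against 115 and 107 CPM in WT testes. These forms had fold changes of opposite sign while the gene's total overlapped. In 1700027A15Rik one form of 416 bases held between 99.1% and 100% of the gene's CPM in every library.

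Across chromosomes, members made up between 5.50% (X) and 12.1% (13) of the genes of at least 3 CPM, leaving aside Y. The X chromosome, silenced as a whole in meiotic spermatocytes and partly reopened in spermatids, held 28 members (2.28%), against 3.57% of protein-coding genes. Its members had a median of 16.3 CPM per kb, against 8.85 CPM per kb for autosomal members and 4.22 CPM per kb for X-linked protein-coding genes. The highest was 1700003E24Rik with 165 and 159 CPM in KO testes, against 211 and 195 CPM in WT testes. It was lower in both KO libraries, with a log2 fold change of -0.32 ± 0.14 (limma, Benjamini-Hochberg adjusted p = 0.95). Behind it came 1700010D01Rik at 157 CPM per kb and Gm5941 at 124 CPM per kb, both with genotypes that overlapped.

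Tas1r3 lies on chromosome 4, and over the whole of that chromosome 69 members were found, 42 higher and 27 lower in KO testes. Over all tested members the split was 586 higher and 639 lower. Of the 69, 9 (13.0%) had an unadjusted p under 0.05, against 6.29% of all members and 4.33% of all genes, and the difference was not tested. Chromosome 10 had 8 of its 73 members at an unadjusted p under 0.05, and on chromosome 13, 38 members were higher and 26 lower. The 9 on chromosome 4 lay between 5051.5 and 113912.4 kb before Tas1r3. Higher in KO were Gm42356 (5051.5 kb), Smarca5-ps (10752.9 kb), 4930515B02Rik (15343.7 kb), Gm12925 (32384.1 kb), Gm2192 (113231 kb) and 4933409K07Rik (113912.4 kb). Lower in KO were 4933438K21Rik (8795.9 kb), B330016D10Rik (14670.3 kb) and 1700095J12Rik (18078.8 kb). Most of the 9 thus lay nearer to Tas1r3 than the full range implies, with directions mixed, and their placing along the chromosome was not tested. A window of 5000 kb leaves Gm42356 just outside. Within 5000 kb of Tas1r3 lay 4 members, BC039966, 5930403L14Rik, Gm13112 and Gm16023, and none had an unadjusted p under 0.05. Gm13112, the only one of these whose genotypes did not overlap, had 13.4 and 15.7 CPM in KO testes, against 8.14 and 10.3 CPM in WT testes.

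The median difference between the single KO libraries changed more with transcript length than that between the genotype means. Among the 116 members under 500 bases, the second KO library exceeded the first by a median log2 difference of 0.49, and among 432 members of 500 to under 1000 bases by 0.29. The difference fell to 0.07 among members of 1000 to under 2000 bases, 0.05 at 2000 to under 4000 bases and 0.04 at 4000 bases or more. Protein-coding genes of the same lengths gave 0.29, 0.26, 0.05, -0.08 and -0.15. Between WT libraries the members' medians lay between -0.07 and -0.03, and the median KO minus WT difference lay between -0.06 and 0.03 in the 5 length classes.

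**Figure D5:**
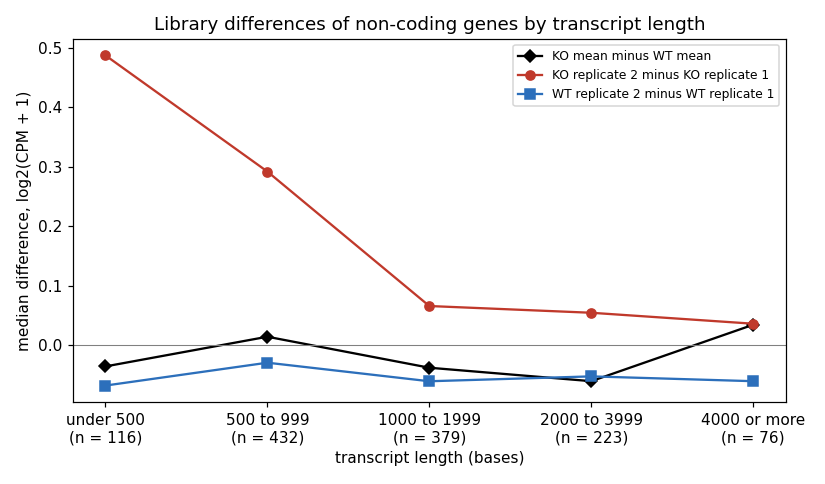
Median difference in log2(CPM + 1) over non-coding genes in 5 classes of transcript length, for the KO mean minus the WT mean (black diamonds), KO replicate 2 minus KO replicate 1 (red circles) and WT replicate 2 minus WT replicate 1 (blue squares). The red line runs between 0.49 for the shortest and 0.04 for the longest class, while black and blue stay near 0.

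Proteins that process, carry or destroy these RNAs were counted in 7 lists. Of 117 genes, all tested, none was called (limma, adjusted over all genes), and 5 (4.27%) had an unadjusted p under 0.05, near the 4.33% of all genes. With higher values in KO were Ccnt1, the cyclin of the P-TEFb complex held by 7SK, with 43.7 and 30.1 CPM in KO testes, against 22.7 and 24.1 CPM in WT testes, and Hnrnpk, a paraspeckle protein, with 227 and 170 CPM in KO testes, against 154 and 142 CPM in WT testes. With lower values in KO were a cofactor and a subunit of the RNA exosome and a protein of box H/ACA particles. Mphosph6 had 3.73 and 2.84 CPM in KO testes, against 12.2 and 11.8 CPM in WT testes. Exosc8 had 2.53 and 3.11 CPM in KO testes, against 8.18 and 11.4 CPM in WT testes. Nop10 had 48.4 and 58.5 CPM in KO testes, against 68.9 and 79.0 CPM in WT testes. By list, 4 of 14 paraspeckle genes, 9 of 16 small nucleolar particle genes, 14 of 21 nuclear exosome genes and 5 of 15 nonsense-mediated decay genes had a fold change above 0. So did 12 of 19 genes of the 7SK, RNase P and RNase MRP particles, 9 of 18 microRNA processing genes and 6 of 14 X-inactivation genes. In all, 59 were higher and 58 lower.

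Markers of other cells were counted for the same libraries. The 7 red blood cell genes were all lower in KO, 2 of them at an unadjusted p under 0.05, with a median log2 fold change of -1.17. They summed to 42.7 and 66.9 CPM in KO testes, against 61.9 and 252 CPM in WT testes, and the 6 epididymis genes to 1.34 and 0 CPM in KO testes, against 46.1 and 0 CPM in WT testes. The 8 Sertoli cell genes summed to 1678 and 1393 CPM in KO testes, against 1570 and 1602 CPM in WT testes, the 6 Leydig cell genes to 1565 and 1640 CPM in KO testes, against 1737 and 1813 CPM in WT testes (4 of the 6 genes higher in KO, median log2 fold change 0.38), and the 5 adipose genes to 17.3 and 26.0 CPM in KO testes, against 37.8 and 14.7 CPM in WT testes. Each high sum of blood or epididymis came from 1 WT library, and its part in the members' values was not tested.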

How the data were processed

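Total RNA of whole testis was sequenced with an Ion Torrent kit, per the labels' protocols. The submitters' processing notes name STAR, Partek and build mm39. The deposited values are CPM per RefSeq transcript, made by the authors, and each library has the same total. Many deposited values are fractions of 1 read. Depth was estimated from the smallest step between low CPM values (748637 and 597936 reads in KO, 1719355 and 1807697 in WT libraries), so 1 read is 1.34, 1.67, 0.582 and 0.553 CPM. The strand setting and software versions are not given in the sources used here.

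CPM was summed per gene symbol and chromosome, over 29342 transcripts, of which 2209 belonged to non-coding symbols. Genes averaging 1 CPM or more were tested with limma 3.58.1 (R 4.3.3, mean-variance trend) on log2(CPM + 1), without a replicate block, with Benjamini-Hochberg adjustment over all genes, and the same over transcripts. Shares of CPM were compared with a two-sided exact permutation test. Fold changes on the log2(CPM + 1) scale understate changes of low genes. Where a genotype had at most 3 estimated reads, a floor of 3 reads over both its libraries or an exact 95% interval was used, for counting error only. Of the members 18 had values identical to another gene's. The limma step was tested on simulated data. Classes were set by name. Named genes were Tas1r3, the 12 highest per kb and 8 highest by CPM, the 8 per direction with the smallest p and no overlap, up to 4 per class, the 3 on each side of the limit, 4 opposite-strand pairs, 2 per protein list and 4 with several transcripts; other genes named were chosen after their values were seen. The members and lists were chosen with earlier results of these data known. Alternatives were the pseudocount, filter, scaling (TMM, quantile, without Rn18s), trend, replicate block, thinning to the shallowest library, the member limit and each library left out.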

Additional observations from a re-analysis of the deposited data

How the results depend on the processing

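With 2 libraries a genotype and an estimated 597936 reads in the shallowest, the precision of low members was limited, and 633 of the members had 3 to 10 CPM. The count of called members was 0 under the alternatives run on pseudocount (0.1 and 5 CPM), filter (none, or a mean of 5 CPM), scaling, trend, thinning, an adjusted p under 0.1 and the member limits of 1 and 10 CPM. The exceptions were the replicate block with 2 (Gm20605 and Gm44505) and leaving out 1 library, with 0 to 96: 96 when KO replicate 1 was left out, 61 when KO replicate 2 was, and 0 when either WT replicate was. A lone KO library is there assumed to vary like the WT libraries, and 13 members were in both of those sets. The labels give no sign that equal replicate numbers mark paired samples, and the correlation of their deviations was -0.0059. The block raised calls over all genes to 24. Members at an unadjusted p under 0.05 numbered 77, 37 with a limit of 10 CPM and 16 to 285 with 1 library left out (174 higher and 111 lower in the absence of KO replicate 1, 72 higher and 188 lower in that of KO replicate 2). The median fold change of members lay between -0.089 and 0.11 with 1 library left out, and was 0.01 after quantile normalization. Genes called in the protein lists numbered 0 to 5, with the 5 in the absence of KO replicate 1 and 1 in the absence of KO replicate 2. The difference in share was 0.0711 percentage points without Rn18s, against 0.607. No transcript was called in any alternative run.

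Of 1190 alternative log2 fold changes of 86 named genes, 60 changed sign. TMM gave 0.0011 for 3110070M22Rik, 0.0037 for 0610009L18Rik, 0.0080 for Snhg16 and 0.0031 for Kcnmb4. Quantile normalization gave 0 for Rn18s, 0.074 for Snhg16 and 0.060 for Gm40178. Snhg16 was 0.055 with a pseudocount of 5 CPM and 0.0020 without Rn18s. Thinning gave 0.22 for 3110070M22Rik, 0.060 for 0610009L18Rik, -0.00055 for Wbscr25, -0.066 for AI507597, 0.36 for Mirg, 0.26 for Snhg3, -0.11 for Cep83 and 0.057 for Med9. With 1 library left out, the ranges of genes that changed sign were Ubb-ps -0.28 to 0.10, Rbakdn -0.10 to 0.20, 1700027A15Rik -0.29 to 0.36, 1700008K24Rik -0.053 to 0.21, Gm15772 -0.11 to 0.24, 1700019M22Rik -0.44 to 0.079, Rps6-ps4 -0.12 to 0.026, Rn45s -0.028 to 0.68, 2810025M15Rik -0.11 to 0.047, 3110070M22Rik -0.18 to 0.16, 0610009L18Rik -0.33 to 0.31, Wbscr25 -0.037 to 0.060, AI507597 -0.066 to 0.27, Kcnmb4os1 -0.28 to 0.63, Cep83os -0.048 to 0.058, Med9os -0.22 to 0.30, Itpr3os -0.35 to 0.076, Rn7s2 -1.13 to 0.059, Malat1 -0.18 to 0.76, Norad -0.67 to 0.033, Gm2762 -0.11 to 0.24, Mirg -0.69 to 0.18, Snhg3 -0.58 to 0.33, Snhg16 -0.91 to 0.91, Gm40178 -0.59 to 0.31, Kcnmb4 -0.042 to 0.020, Cep83 -0.19 to 0.22, Med9 -0.22 to 0.11, Itpr3 -0.43 to 0.048 and 1700029M20Rik -0.028 to 0.22. The causes were not tested.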
